A study of Mus musculus with 28 samples.

Results

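The mouse genes described here code for the tight junction proteins of the blood-testis barrier. They are 9 of the 43280 gene rows in the tables, chosen by name: the claudins Cldn3 and Cldn11, occludin (Ocln) and its relative tricellulin (Marveld2), the junctional adhesion molecules Jam2, Jam3 and F11r, the related Cxadr, and the scaffold protein Tjp1. All 9 symbols were found. Their RNA was followed in 2 sets of libraries from mice whose spermatogenesis had been synchronised. Every animal was given WIN 18,446, a blocker of retinoic acid synthesis, for 7 days, received retinoic acid (RA) the next day, and was kept for 42 to 50 days more.

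The first set is 18 libraries of NANOS2 KO testes on a CD1 background, 2 for each day from 42 to 50 after the RA injection. NANOS2 maintains the male germ line, and the labels call this testis germ cell-deficient. The labels give Sertoli as its cell type but whole testis as its source, so Leydig, peritubular, vascular and immune cells are included. The second set is 10 libraries of Sertoli cells, sorted for a red fluorescent protein (RFP) from RFP heterozygote, Amh-Cre-positive mice, in which the Cre is driven by a Sertoli cell promoter. These mice have germ cells and are labelled as C57BL/6 x 129s4/SvJae, except for group A replicate 1, which is labelled as C57BL/6 x Amh-Cre background. They form 5 groups of 2 by the most enriched stages of the seminiferous cycle: B for stages I-III, C for stages IV-VI, D for stages VII-VIII, E for stages IX-X and A for stages XI-XII. Genotype, strain, sorting and whole tissue all differ between the 2 sets and cannot be told apart.

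Sertoli cells enclose the germ cells of the seminiferous tubule. Near the tubule wall neighbouring Sertoli cells are sealed by tight junctions, which with adhesion and gap junctions form the blood-testis barrier. Claudins and occludin span the membrane and build the strands, the adhesion molecules sit beside them, and scaffold proteins tie them to actin. The barrier is taken apart and rebuilt once in each cycle, at about stages VIII to X, when preleptotene spermatocytes pass through it, and claudin 3 is known from mouse testis as a component of the newly forming junctions. Male mice without claudin 11 are sterile.

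Total counts ran from 1336742 to 4370138 in NANOS2 KO libraries and from 1901743 to 5279746 in sorted libraries, so 3 counts equal 0.686 to 2.244 and 0.568 to 1.578 CPM, the counts per 1000000 counts of the library. Whether 2 replicates came from different animals is not stated, and the p-values cover the spread between libraries alone. The summed level of 12 Sertoli markers was 15267 CPM ± 696 in NANOS2 KO testes (SD, n = 18) and 10481 CPM ± 1846 in sorted cells (SD, n = 10). That gap came from Clu, the clusterin gene, with 10743 CPM in the knockout and 4977 CPM in sorted cells. Clu differed by more than the sums did, so the other markers together were lower in the knockout. In the joint fit 3 of the 12 were called higher in the knockout and 7 lower, with a median log2 difference of -0.33. Of all genes tested, 38.0% were called higher and 47.0% lower, with a median of -0.17. Mitochondrial genes held 0.715 to 3.242% of counts in the knockout and 4.61 to 12.517% in sorted libraries, with no overlap, and the part of this difference in the results between the sets was not tested. NANOS2 KO day 49 replicate 1 stood apart, with 0.715% of its counts from mitochondrial genes against 2.335 to 3.242% in the other 17. Marker sums of other cell types differed between the sets. Elongating spermatid genes summed to 187 CPM ± 17.7 in the knockout, nearly all of it Odf2 (186 CPM), and to 10958 CPM ± 4770 in sorted cells. Fewer cells of a type and less RNA per cell cannot be told apart in such bulk libraries.

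Levels between genes were compared per kilobase of exon. In both sets Cldn11 and F11r, the gene of JAM-A, stood far above the other members. Cldn11 averaged 485 CPM per kb ± 73.4 in NANOS2 KO testes (SD, n = 18) and 410 CPM per kb ± 90.8 in sorted cells (SD, n = 10). F11r averaged 155 CPM per kb ± 14.5 in the knockout and 130 CPM per kb ± 15.3 in sorted cells. The libraries of these 2 genes did not overlap with each other or with those of any gene below them. The third place was held by Jam2 in the knockout (39.9 CPM per kb ± 4.51) and by Cldn3 in sorted cells (55.5 CPM per kb ± 22.2). From there the ranges of Jam2, Jam3, Cldn3 and Tjp1 overlapped in the knockout, as did those of Cldn3 and Jam3, and of Tjp1, Jam2 and Ocln, in sorted cells. The wide range of Cldn3 also overlapped with that of Ocln in the knockout and that of Tjp1 in sorted cells. Marveld2 and Cxadr were last in both sets, at 1.02 and 0.561 CPM per kb in the knockout and at 0.577 and 0.153 CPM per kb in sorted cells.

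**Figure D1:**
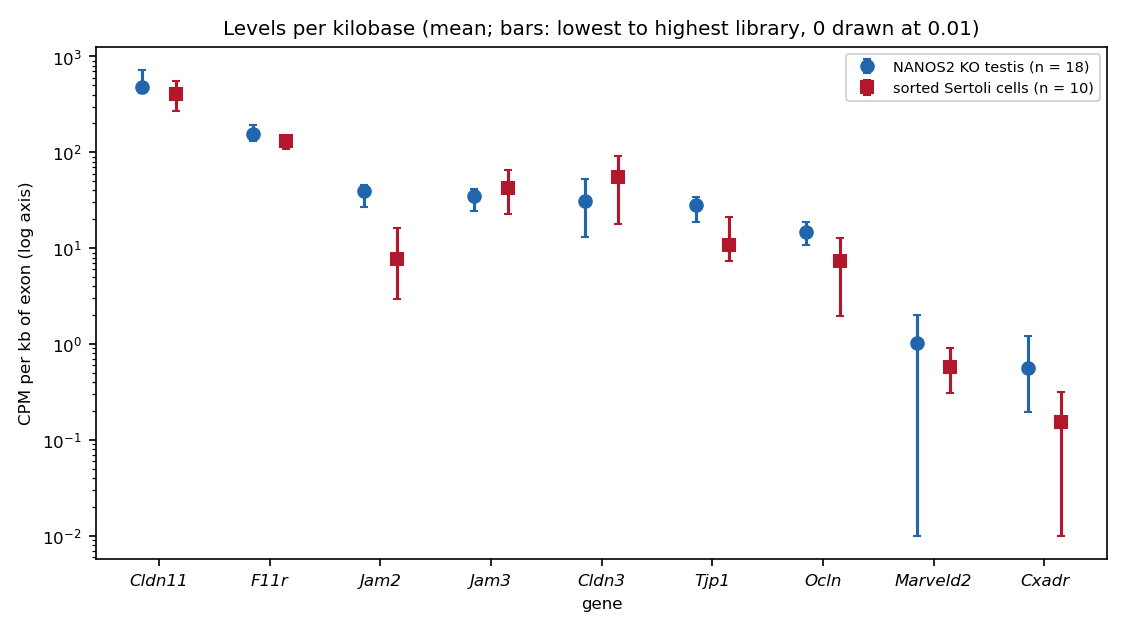
CPM per kilobase of exon (log axis) of the 9 genes in NANOS2 KO testes (circles, n = 18) and sorted Sertoli cells (squares, n = 10), as the mean with bars from the lowest to the highest library; a library at 0 is drawn at 0.01. Cldn11 and F11r lead in both sets, and Jam2 shows the widest gap between the sets.

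For 6 of the 9 genes, RefSeq gave a promoter window of 300 bases, 250 before and 50 after the start (GRCm38.p6). Those of the 2 most abundant members and of Cldn3, the claudin with the wider spread over stages, are shown in lower case. Capitals mark GC boxes (GGGCGG) and CCAAT boxes (CCAAT), both strands searched. The windows are at chr3:31149670-31149969 for Cldn11, chr1:171437311-171437610 for F11r and chr5:134985964-134986263 for Cldn3, all on the plus strand.
Cldn11: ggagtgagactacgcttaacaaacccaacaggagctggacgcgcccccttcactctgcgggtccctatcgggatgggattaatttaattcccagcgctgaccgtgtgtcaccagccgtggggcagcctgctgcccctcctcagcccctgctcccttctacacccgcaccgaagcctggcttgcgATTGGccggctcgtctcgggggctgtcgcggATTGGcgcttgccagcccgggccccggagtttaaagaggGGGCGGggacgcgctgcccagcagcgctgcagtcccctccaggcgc
F11r: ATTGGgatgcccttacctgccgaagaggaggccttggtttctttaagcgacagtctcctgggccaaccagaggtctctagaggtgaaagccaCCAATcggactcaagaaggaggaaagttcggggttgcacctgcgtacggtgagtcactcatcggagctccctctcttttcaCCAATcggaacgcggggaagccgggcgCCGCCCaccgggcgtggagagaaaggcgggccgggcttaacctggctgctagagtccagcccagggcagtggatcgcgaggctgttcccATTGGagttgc
Cldn3: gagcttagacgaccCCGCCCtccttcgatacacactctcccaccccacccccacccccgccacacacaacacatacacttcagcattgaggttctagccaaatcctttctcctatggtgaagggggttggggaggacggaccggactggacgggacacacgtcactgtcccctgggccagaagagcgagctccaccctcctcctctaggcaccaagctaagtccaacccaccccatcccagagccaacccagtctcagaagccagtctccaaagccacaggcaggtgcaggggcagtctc
A GC box was present in each of the 8 windows of the 6 genes, Ocln and Marveld2 having 2 windows each, against 35.7% of all 32851 windows. CCAAT was present in 3 of the 8, with 2 matches in Cldn11 and 4 in F11r, against 37.4% of all windows. The androgen response half-site TGTTCT was found in the 2 overlapping windows of Marveld2, against 19.0% of all windows. A match of letters does not show a bound site.

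The stage groups ask how the junction genes move along the cycle in sorted Sertoli cells. Of the 9 members, 8 passed the filter on low counts, and 0 of these 8 differed among the 5 groups in edgeR's quasi-likelihood F test, against a background of 8.07% of 14331 genes. At an unadjusted p under 0.05 there were 3, namely Ocln, Jam2 and Jam3, which are also the 3 that DESeq2 called, while limma called 0. Leaving out 1 library gave 0 to 3 calls, with Ocln, Jam2 and Jam3 all called without A replicate 2. The patterns below are therefore descriptions, except where a contrast passed the test.

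Cldn3, a single-exon gene at chr5:134986214-134987472, read 54.2 and 45.8 CPM (B), 22.5 and 74.6 CPM (C), 103 and 116 CPM (D), 78.2 and 88.7 CPM (E), and 64.0 and 52.6 CPM (A). Both group D libraries lay above every other library, and E lay above A and B, while the C libraries were far apart. The adjusted p of the F test was 0.292. The log2 difference of group D from the mean of the other groups was 0.86 (SE 0.31, adjusted p = 0.115). Leaving out 1 library moved this difference between 0.69 (without C replicate 1) and 1.15 (without C replicate 2). It stayed uncalled in 9 of these 10 fits.

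Cldn11 (chr3:31149920-31164324, 3 exons) read 665 and 584 CPM (B), 842 and 1034 CPM (C), 899 and 974 CPM (D), 674 and 775 CPM (E), and 706 and 510 CPM (A). All C and D libraries lay above all others, so this claudin was already high at stages IV-VI, where Cldn3 had its lowest mean. The difference of D from the other groups was 0.36 (SE 0.20, adjusted p = 0.312). With scaling by the Sertoli markers it was 0.17 (adjusted p = 0.803), and that of Cldn3 was 0.70 (adjusted p = 0.202). The Sertoli marker sum was also highest in D. It was 9033 CPM ± 265 (B), 10713 CPM ± 3487 (C), 12543 CPM ± 310 (D), 10733 CPM ± 1537 (E) and 9384 CPM ± 811 (A) (SD, n = 2 each). In the F test 0 of the 12 markers differed, and the part of this sum in the claudin values was not tested. The ratio of Cldn11 to Cldn3 CPM, not corrected for length, was 12.5 ± 0.337 (B), 25.6 ± 16.7 (C), 8.57 ± 0.256 (D), 8.68 ± 0.0867 (E) and 10.4 ± 0.948 (A) (SD, n = 2 each).

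Ocln (chr13:100496507-100552718, minus strand), which codes for the first strand protein described, read 40.5 and 18.6 CPM (B), 8.34 and 15.2 CPM (C), 35.4 and 20.4 CPM (D), 54.2 and 42.8 CPM (E), and 48.5 and 24.3 CPM (A). Its lowest libraries were those of C, below all others, and the replicates of B, D and A were far apart. Group C differed from the other groups by -1.54 (SE 0.43, adjusted p = 0.0857) and E by 0.98 (SE 0.35, adjusted p = 0.258). DESeq2 called the difference of C (adjusted p = 0.00622). Marveld2 (chr13:100595957-100616971, minus strand), whose protein seals the corners where 3 cells meet, was near the floor, with 75 counts over the 10 libraries and 1.04 to 3.06 CPM. Its adjusted p was 0.841.

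Jam2 (chr16:84774123-84825928), the gene of JAM-B, read 56.3 and 49.0 CPM (B), 47.9 and 60.0 CPM (C), 97.9 and 54.6 CPM (D), 27.1 and 21.9 CPM (E), and 36.7 and 17.7 CPM (A). All libraries of B, C and D lay above all libraries of E and A. Jam2 rose in group D by 1.00 on the log2 scale (SE 0.29, adjusted p = 0.0483), the only member called in any contrast of stage groups, against a background of 4.36% of genes called higher in D and 4.28% called lower. The call was lost without any 1 of 7 libraries (all but A replicates 1 and 2 and C replicate 2), most of all without D replicate 1, where the difference was 0.51 (adjusted p = 0.553), with scaling by the Sertoli markers (0.81, adjusted p = 0.129) and in limma (0.99, adjusted p = 0.0616). D replicate 1 also had the highest mitochondrial share of the sorted libraries, 12.517% against 4.61% in D replicate 2. The endothelial marker sum was also highest in D, at 31.7 CPM ± 4.31 and lowest at 9.63 CPM ± 1.20 in A (SD, n = 2 each), and the part of neither in the Jam2 result was tested.

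Jam3 (chr9:27097384-27155421, minus strand), the gene of JAM-C, read 168 and 109 CPM (B), 72.2 and 80.4 CPM (C), 116 and 101 CPM (D), 173 and 174 CPM (E), and 210 and 147 CPM (A). Its protein is a known binding partner of JAM-B, but its order over the stages was another: lowest in C, below every other library, with the highest means in A and E. Group C differed from the others by -0.95 (SE 0.25, adjusted p = 0.0614) in edgeR, where 0 members were called in C against 1.95% of genes called higher and 0.691% lower. Jam3 was called in C by DESeq2 (-0.97, adjusted p = 0.00663) and by limma (-0.92, adjusted p = 0.0485). Also without a length correction, the ratio of Jam2 to Jam3 CPM was 0.393 ± 0.082 (B), 0.705 ± 0.0586 (C), 0.692 ± 0.213 (D), 0.141 ± 0.0213 (E) and 0.148 ± 0.0385 (A) (SD, n = 2 each). Spermatids are known to make JAM-C, and the sums of 8 round spermatid markers were 488 CPM ± 15.5 (B), 386 CPM ± 128 (C), 426 CPM ± 159 (D), 632 CPM ± 87.1 (E) and 585 CPM ± 257 (A). Gene by gene the list did not follow the sum, with a median log2 difference of 0.31 in C, -0.09 in E and -0.60 in A. The sum of 8 elongating spermatid markers was lowest in D, at 3141 CPM ± 821, and 10453 CPM ± 2175 in C, where Jam3 was lowest. The part of spermatids in the Jam3 values was not tested. The exons of Jam3 share 1159 bases with an antisense gene, and since the strand of counting is not given in the sources used here, reads of the 2 cannot be told apart.

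F11r (chr1:171437535-171464603) was the steadiest member, with 371 and 294 CPM (B), 287 and 350 CPM (C), 361 and 379 CPM (D), 396 and 377 CPM (E), and 367 and 292 CPM (A). Its highest group mean was 1.21 times its lowest, and groups next to each other in the order of their means overlapped. In cycle order, both C libraries lay below both D libraries, and both A libraries below both E libraries. Cxadr (chr16:78301489-78359774), the coxsackievirus and adenovirus receptor, had only 39 counts over the 10 libraries, with 0 in E replicate 1, which allows up to 0.568 CPM. It was not tested over stages.

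Tjp1 (chr7:65296165-65527781, minus strand) codes for ZO-1, the scaffold beneath the strands. It read 115 and 74.7 CPM (B), 63.5 and 65.2 CPM (C), 71.1 and 58.0 CPM (D), 106 and 69.8 CPM (E), and 167 and 62.9 CPM (A). Both B libraries lay above those of C and D, and those of E above C, while A overlapped with every other group. The high mean of A came from replicate 1, the library with the other strain label. Group A differed by 0.63 (SE 0.31, adjusted p = 0.401), and by -0.21 (adjusted p = 0.837) without that library.

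**Figure D2:**
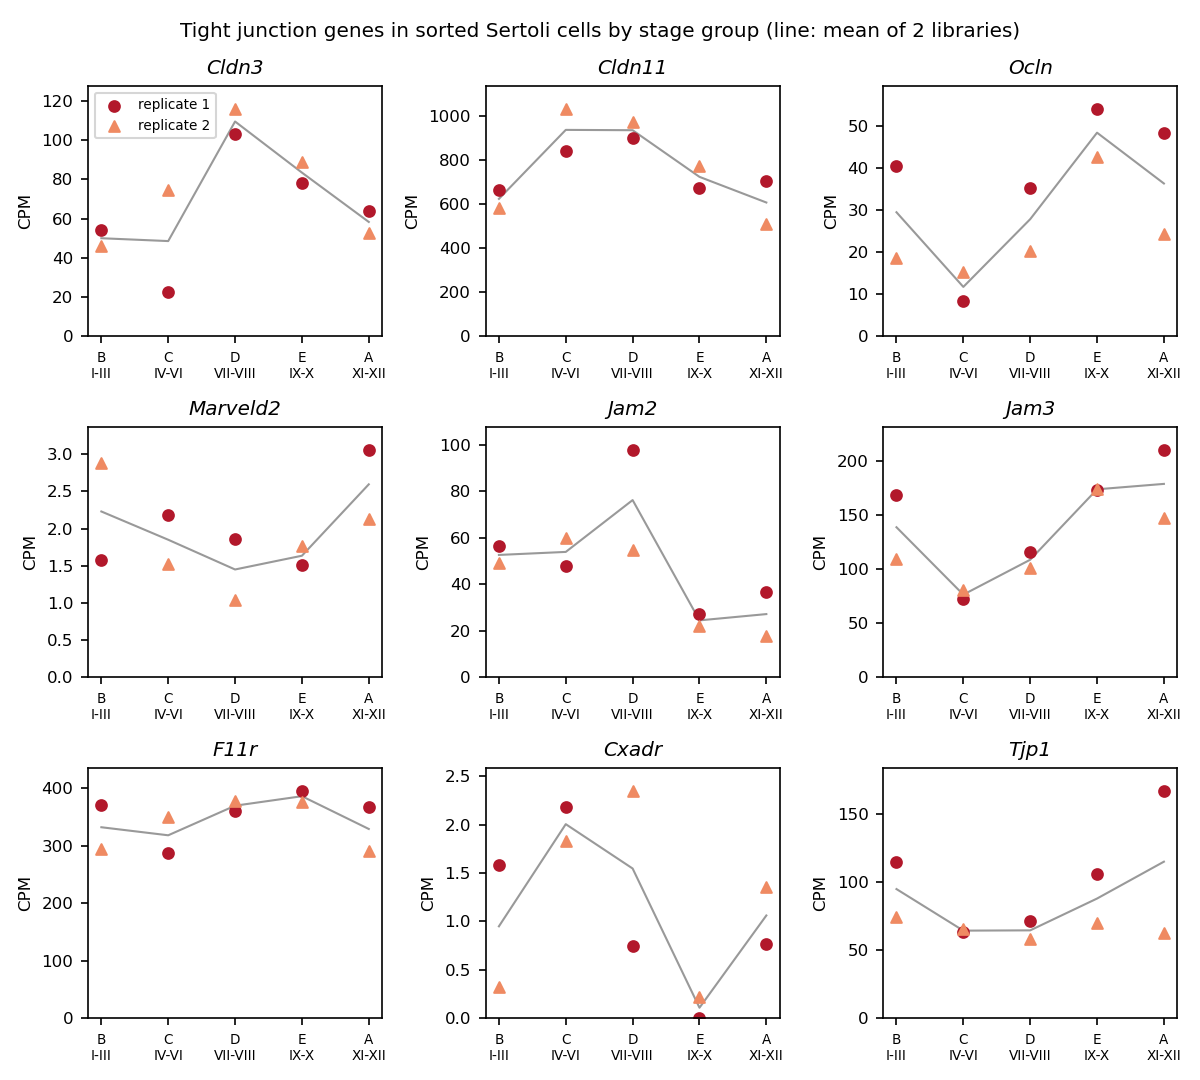
CPM of the 9 genes in sorted Sertoli cells (vertical axis) against the stage group in cycle order, with circles for replicate 1, triangles for replicate 2 and a line through the mean of the 2. Cldn3 is highest in D, Jam2 is lower in E and A than in the other groups, and Ocln and Jam3 are lowest in C.

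In the remaining contrasts 0 of the 8 members were called. The background was 0.0419% higher and 0% lower for B, 0.251% higher and 0.272% lower for E, and 0.789% higher and 0.886% lower for A. DESeq2 and limma called 0 members in these 3 contrasts. In E, 3 members had an unadjusted p under 0.05: Ocln, Jam2 (-1.02, SE 0.33, adjusted p = 0.209) and Jam3 (0.52, SE 0.22, adjusted p = 0.362). In A there were 2, Jam2 (-0.77, SE 0.32, adjusted p = 0.302) and Jam3 (0.64, SE 0.22, adjusted p = 0.187), with the same signs as in E. In B there were 0.

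Among the members, Ocln and Jam3 were most alike over the 10 sorted libraries, with a Pearson r of log2 CPM of 0.92, and again 0.92 without A replicate 1. These libraries come in 5 pairs of 1 stage group each and share whatever differs between groups, so the r is a description. Next came Cldn3 with F11r (0.77), Tjp1 with Jam3 (0.73) and Ocln with F11r (0.72). Cldn11 and Jam3 had an r of -0.54.

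**Figure D3:**
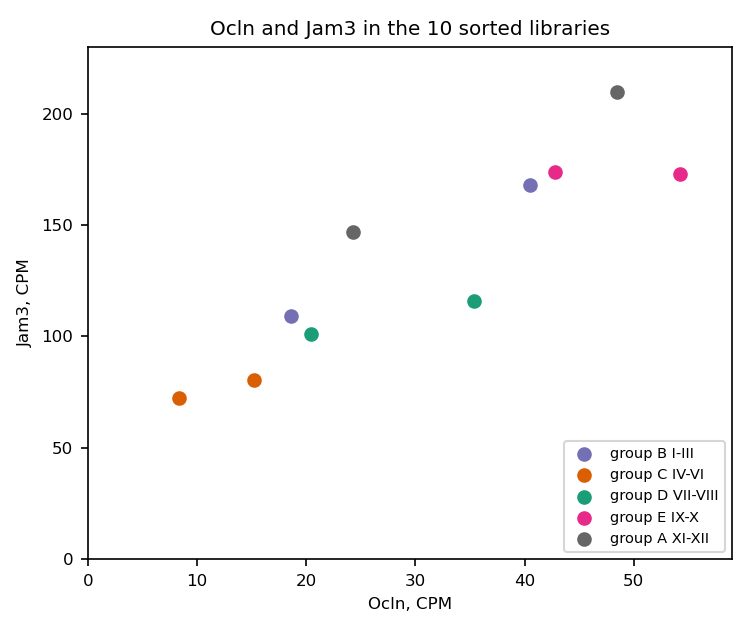
Jam3 CPM (vertical axis) against Ocln CPM (horizontal axis) in the 10 sorted libraries, coloured by stage group. Both genes are lowest in the 2 libraries of group C, at 8.34 and 15.2 CPM of Ocln and 72.2 and 80.4 CPM of Jam3.

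The genes most like Cldn3 were sought among 7882 named genes of higher expression, with ribosomal genes left out. They were Mthfd1, a folate enzyme (r = 0.988), Caskin1, a neuronal scaffold protein (0.986), and Csdc2, a cold shock domain protein (0.984). Each r over these 10 libraries is again a description. Caskin1 averaged 60.2 CPM (B), 73.2 CPM (C), 198 CPM (D), 150 CPM (E) and 77.0 CPM (A). Its C libraries were also far apart, at 21.4 and 125 CPM, which a choice by r over the same libraries favours. Those most like Cldn11 were Aard (r = 0.979), itself one of the Sertoli markers, Nenf (0.969) and Mylk, a myosin light chain kinase (0.957). Mylk averaged 140 CPM (B), 226 CPM (C), 270 CPM (D), 151 CPM (E) and 123 CPM (A).

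Other genes of the junction did pass the F test over stages. Among 23 further tight junction membrane proteins, 7 were tested and 3 differed: Cldn23, Marveld1 and Cldn10. Cldn23, another claudin, averaged 5.47 CPM ± 1.78 (B), 18.8 CPM ± 11.3 (C), 21.6 CPM ± 0.56 (D), 3.08 CPM ± 0.607 (E) and 0.865 CPM ± 0.127 (A) (SD, n = 2 each; adjusted p = 0.0014). It rose in D by 2.34 (SE 0.35, adjusted p = 0.00137). Cldn10, a channel-forming claudin, also rose in D, with 8.68 CPM ± 1.93 (D), 7.39 CPM ± 1.34 (E) and at most 1.34 CPM on average elsewhere. Marveld1, a relative of tricellulin, had its highest mean in C (66.3 CPM ± 10.1) and fell in E (12.7 CPM ± 2.13, log2 difference -1.80, adjusted p = 0.0246).

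Of 24 plaque and polarity proteins, 22 were tested and 2 differed. These shares are to be read against the 8.07% of all genes. Magi1, a scaffold protein of tight junctions, averaged 5.51 CPM ± 0.36 (B), 26.2 CPM ± 20.2 (C), 47.0 CPM ± 12.5 (D), 20.1 CPM ± 9.13 (E) and 9.14 CPM ± 1.39 (A), and rose in D (log2 difference 1.83, adjusted p = 0.00742). Rab13, a small GTPase of junction traffic, fell in D (31.0 CPM ± 2.46, log2 difference -1.19, adjusted p = 0.00748) and rose in A (95.5 CPM ± 15.7, log2 difference 0.93, adjusted p = 0.0372). Of 13 regulators of the barrier, 10 were tested and 1 differed, the cytokine gene Il1a (adjusted p = 0.0379). Il1a was near the floor, with 64 counts over the 10 sorted libraries and a mean of 2.13 CPM ± 1.69 (SD, n = 10). The most abundant of the lists per kilobase in sorted cells were Lsr (the lipolysis-stimulated receptor of tricellular junctions), Marveld1, Ybx3, Cgn (cingulin), Fyn and Wt1.

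The NANOS2 KO days ask whether the same genes keep a rhythm where germ cells are lacking. All 9 members were tested, and 0 of 9 differed among the 9 days in edgeR's F test, against 0.582% of 13065 genes called. On a straight line over the days 0 of 9 were called, where 0.490% of genes were called higher with time and 0.367% lower. A cosine with the length of the mouse cycle, 8.6 days, was called for 0% of genes in edgeR and for 60 genes in DESeq2, none of them a member. At an unadjusted p under 0.05 there were 3 members in the F test (Cldn3, Cldn11 and F11r), 1 on the line (Tjp1) and 2 in the cycle (Cldn11 and Tjp1). DESeq2 called 1, 0 and 0 members in these 3 tests and limma 0 in each.

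Cldn3 varied most in the knockout among the members above 10 CPM, with 16.4 to 65.9 CPM and a median of 38.5 CPM. Its 2 libraries of 1 day were 42.3 and 65.9 CPM on day 42, 44.2 and 21.7 CPM on day 46, 31.8 and 59.4 CPM on day 47, 26.4 and 26.4 CPM on day 48, 56.1 and 54.6 CPM on day 49, and 16.4 and 27.4 CPM on day 50. Libraries of the same day were often as far apart as the days. The F test gave an adjusted p of 0.144 in edgeR and 0.0318 in DESeq2.

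Cldn11 ran from 774 to 1342 CPM with a median of 858 CPM, and its adjusted p was 0.329. The highest library was day 49 replicate 1, the one that stood apart, followed by day 42 replicate 1 at 1104 CPM and day 45 replicate 1 at 991 CPM. The same library had the highest F11r (519 CPM), the lowest Jam2 (163 CPM) and Tjp1 (148 CPM), and no Marveld2 count, which allows up to 1.735 CPM. Without its partner, day 49 replicate 2, this library alone stood for day 49. Calls over days then became more common among all genes, with Cldn11 and Cldn3 among them. Tjp1 was highest on day 43, with 265 and 257 CPM, and read 203 and 213 CPM on day 50, with a slope of -0.04 on the log2 scale per day (SE 0.01, adjusted p = 0.145). Correlations between members in the knockout leaned on that 1 library as well: Cldn11 and Jam2 had an r of -0.81 over 18 libraries and -0.56 without it, and Tjp1 and Cldn11 -0.64 and -0.23.

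The remaining members were not called over days either. Ocln day means ran from 52.0 CPM ± 0.0806 on day 48 to 74.2 CPM ± 3.65 on day 43 (SD, n = 2 each; adjusted p = 0.764). Over the stage groups of sorted cells its means had run from 11.8 to 48.5 CPM, and the difference between these ranges was not tested. Jam2 day means lay between 195 CPM ± 44.6 on day 49 and 271 CPM ± 9.88 on day 50 (adjusted p = 0.547), those of Jam3 between 101 CPM ± 31.7 on day 47 and 123 CPM ± 4.45 on day 43 (adjusted p = 0.878). F11r was lowest on day 43, at 347 and 365 CPM, and highest on day 49, at 519 and 453 CPM, with an adjusted p of 0.444. Cxadr and Marveld2 both had their highest mean on day 46 (7.25 CPM ± 2.44 and 5.07 CPM ± 2.36) and their lowest on day 49, at levels close to the floor. Of the other junction lists, 0 of 9 membrane proteins, 0 of 22 plaque and polarity proteins and 0 of 12 regulators tested were called over days by edgeR, with 2 of each list at an unadjusted p under 0.05. Among marker genes, 3 of 7 Leydig genes and 1 of 12 Sertoli genes were called over days.

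**Figure D4:**
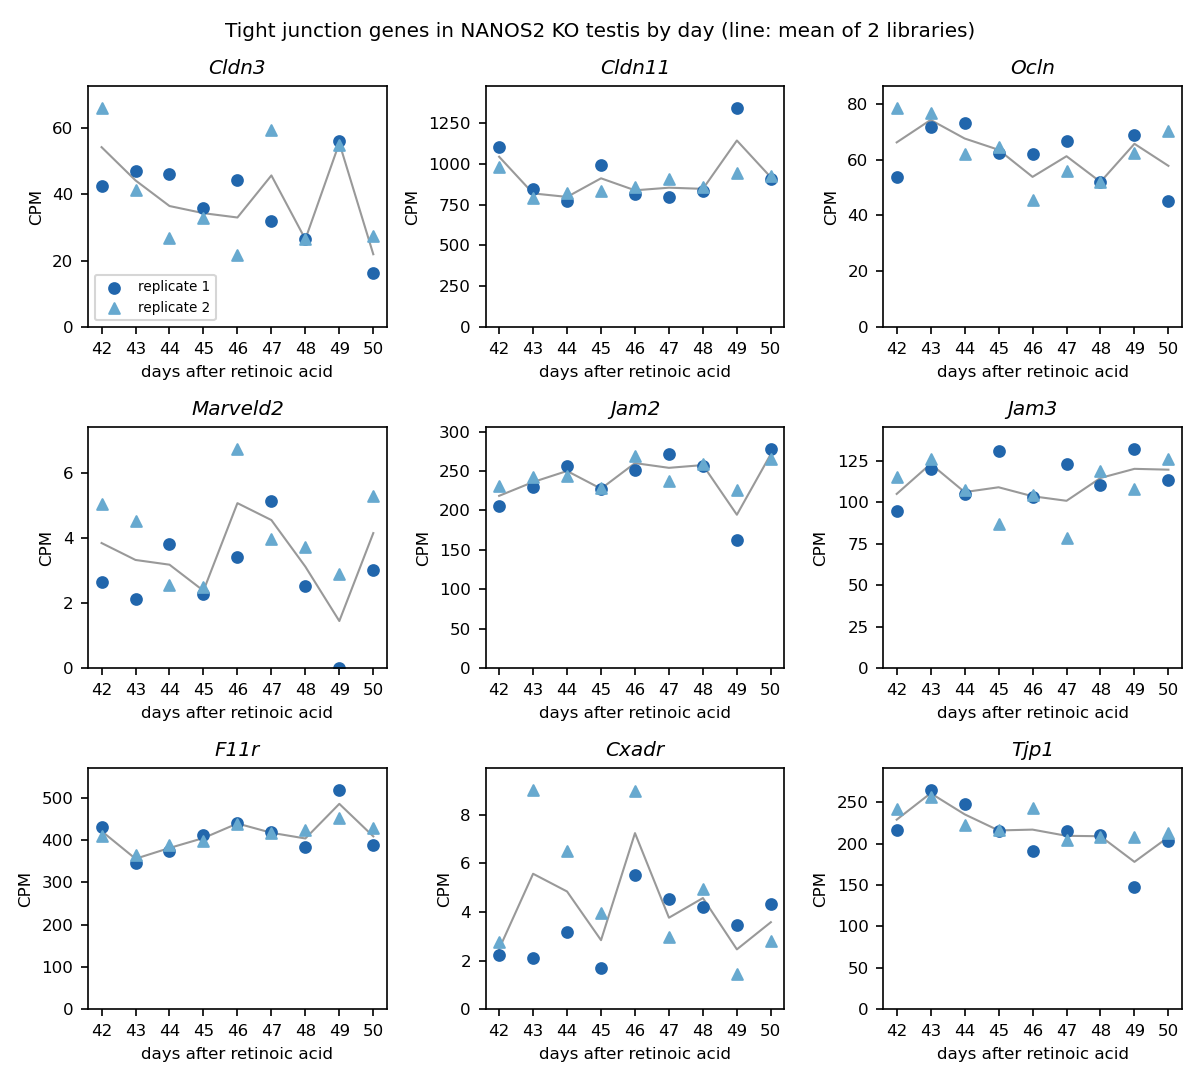
CPM of the 9 genes in NANOS2 KO testes (vertical axis) against days after the RA injection, with circles for replicate 1, triangles for replicate 2 and a line through the mean of the 2. Day 49 replicate 1 is the highest Cldn11 library (1342 CPM) and the lowest Jam2 library (163 CPM).

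The last comparison sets the germ cell-deficient testis against sorted Sertoli cells, by a joint fit over all 28 libraries. Of the 9 members, 4 rose in the knockout, Jam2, Cxadr, Tjp1 and Ocln, and 2 fell, Cldn3 and Jam3. Calls were common among all genes, at 38.0% higher and 47.0% lower of 15777. The median log2 difference was 0.39 over the members and -0.17 over all genes tested. The joint TMM scaling moves these values away from the ratio of CPM, and the median of all genes was 0.199 on unscaled CPM in limma, so differences are to be read relative to the median of all genes.

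Jam2 ran from 163 to 278 CPM in NANOS2 KO testes with a median of 243 CPM, against 17.7 to 97.9 CPM in sorted cells with a median of 48.4 CPM. It was the only member whose libraries did not overlap between the sets. It rose by 2.11 on the log2 scale (SE 0.11, adjusted p = 3.96e-15, edgeR), and lay between 1.97 and 2.49 under the other settings with all libraries. Endothelial cells also make JAM-B, and 10 endothelial markers summed to 160 CPM ± 23.8 in the knockout, with a range of 116 to 221 CPM, against 19.5 CPM ± 9.39 and 8.79 to 34.8 CPM in sorted cells. All 10 had counts in both sets, and their part in the Jam2 result was not tested.

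Tjp1 ran from 148 to 265 CPM in the knockout (median 215 CPM), against 58.0 to 167 CPM in sorted cells (median 70.4 CPM). Only A replicate 1 of the sorted libraries reached into the range of the knockout. The gene rose by 1.01 (SE 0.12, adjusted p = 2.63e-08). It is made by many cell types, and marker sums of Leydig and myoid cells were also higher in the knockout, with 4283 CPM ± 1258 against 26.4 CPM ± 8.35 for 7 Leydig genes and 694 CPM ± 54.2 against 216 CPM ± 83.1 for 6 peritubular myoid genes. Actg2 alone made 159 CPM of the myoid sum in sorted cells, against 8.15 CPM in the knockout, and the other 5 myoid genes were called higher in the knockout. Of the Leydig genes, Insl3 and Lhcgr were at 0 in every sorted library. The part of these cells in the Tjp1 result was not tested.

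Ocln ran from 45.2 to 78.5 CPM in the knockout (median 62.5 CPM), against 8.34 to 54.2 CPM in sorted cells (median 29.8 CPM). The group E libraries and A replicate 1 overlapped with or came close to the knockout, and the C libraries were farthest below it. Ocln rose by 0.78 (SE 0.14, adjusted p = 2.06e-05). Cxadr had 1.45 to 9.03 CPM in the knockout, 182 counts in all, against 0 to 2.35 CPM and 39 counts in sorted cells. It rose by 1.81 (SE 0.35, adjusted p = 4.13e-05), but 695 of its exon bases are shared with Btg3 on the other strand. Other epithelia also make CXADR, and 10 markers of rete testis and ducts summed to 33.7 CPM ± 13.3 in the knockout and 39.1 CPM ± 12.8 in sorted cells. Epcam and Cdh1 carried the sum in sorted cells, at 20.6 and 9.54 CPM, against 16.5 and 3.30 CPM in the knockout. Several rarer genes of the list were higher in the knockout, among them Pax8 with 1.82 CPM against 0.041 CPM and Cldn4 with 3.47 CPM against 0.435 CPM in sorted cells. Krt8 (1.64 against 3.04 CPM) and Cftr (0.418 against 1.67 CPM) were lower there. Of the 5 genes of the list that were tested, 1 was called higher and 3 lower, with a median log2 difference of -0.84. Of all genes tested, 38.0% were called higher and 47.0% lower, with a median of -0.17. The part of such cells in the Cxadr result was not tested.

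Cldn3 ran from 16.4 to 65.9 CPM in the knockout (median 38.5 CPM), against 22.5 to 116 CPM in sorted cells (median 69.3 CPM). Both D libraries, both E libraries and C replicate 2 lay above every knockout library. Cldn3 fell in the knockout by 1.20 on the log2 scale (SE 0.15, adjusted p = 9.5e-08). Jam3 ran from 78.5 to 132 CPM, against 72.2 to 210 CPM in sorted cells, and fell by 0.60 (SE 0.09, adjusted p = 1.15e-06), with the C and D libraries of sorted cells inside the range of the knockout or below it.

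Cldn11 and F11r, the most abundant members, did not pass the test. Cldn11 had 774 to 1342 CPM in the knockout and 510 to 1034 CPM in sorted cells, a difference of -0.12 (SE 0.07, adjusted p = 0.123). F11r had 347 to 519 CPM in the knockout and 287 to 396 CPM in sorted cells, a difference of -0.13 (SE 0.07, adjusted p = 0.0636). Their sign depended on the scaling: the differences were 0.04 and 0.03 with scaling by the Sertoli markers, and 0.26 and 0.25 in limma on unscaled CPM, where both were called (adjusted p = 0.00163 and 0.000493). In edgeR the Cldn11 difference was also called without A replicate 2, C replicate 1 or NANOS2 KO day 49 replicate 1, and that of F11r without A replicate 2, B replicate 2 or C replicate 1. Marveld2 had 0 to 6.73 CPM in the knockout and 1.04 to 3.06 CPM in sorted cells, a difference of 0.39 (SE 0.27, adjusted p = 0.18). In limma it was called as well (0.51, adjusted p = 0.0146). Limma thus called all 9 members, and 13490 of the 15777 genes tested.

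The size of these differences went with the length of the transcripts. The 3 longest members, Tjp1 (7.81 kb of exon), Cxadr (7.40 kb) and Jam2 (6.04 kb), had the 3 largest rises, and the shortest, Cldn3 (1.26 kb), had the largest fall. The same held over all genes tested: the median log2 difference was -1.01 for genes of up to 2 kb, -0.36 for 2 to 4 kb, 0.03 for 4 to 6 kb, 0.17 for 6 to 8 kb and 0.64 for more than 8 kb. Genes with over 6 kb of exon held 39.1 to 42.5% of the counts of genes outside the mitochondrial genome in the knockout and 28.3 to 31.5% in sorted libraries. With a correction for exon length, added after seeing the data, Jam2 (1.97), Cxadr (1.42), Ocln (0.89) and Tjp1 (0.62) were still called higher. Cldn3 (-0.31, adjusted p = 0.0589) and Jam3 (-0.16, adjusted p = 0.0902) lost their calls, while Cldn11 (0.77, adjusted p = 8e-10) and F11r (0.30, adjusted p = 9.54e-05) were called higher. Between stage groups the medians lay closer together: in E, where they were farthest apart, they were 0.11 for up to 2 kb and -0.05 for more than 8 kb.

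**Figure D5:**
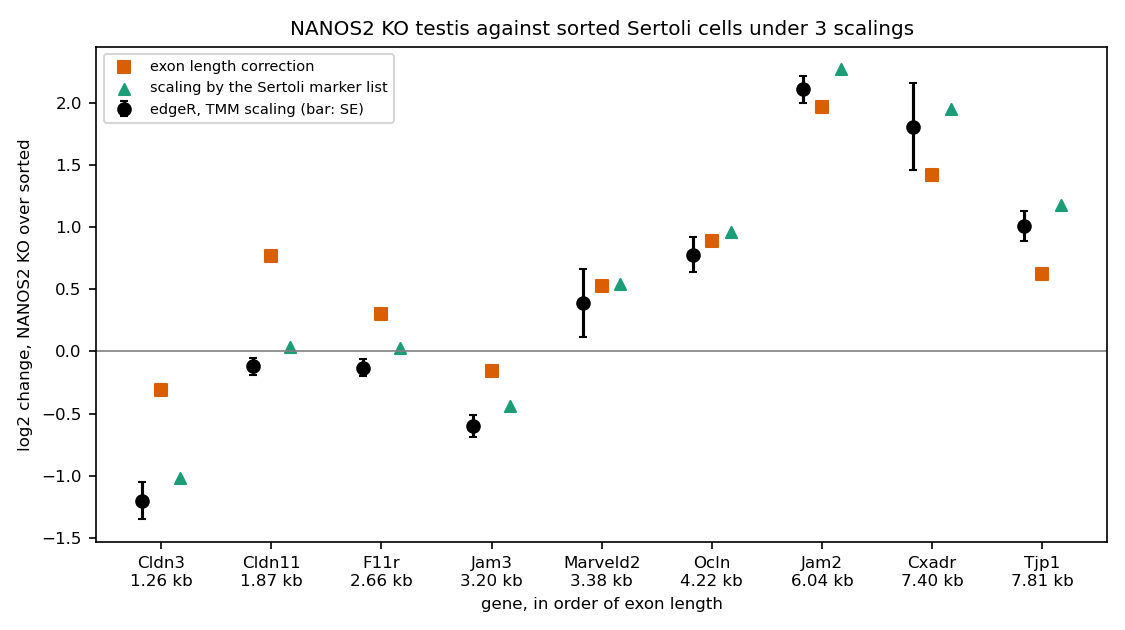
Log2 difference of NANOS2 KO testes over sorted Sertoli cells (vertical axis) for the 9 genes in order of exon length (horizontal axis), from the edgeR fit with TMM scaling (circles, bars give the SE), with the correction for exon length (squares) and with scaling by the Sertoli markers (triangles). Jam2 is near 2 under all 3, and Cldn11 moves from -0.12 to 0.77 with the length correction.

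Against group D alone, the stages at which the barrier begins to be rebuilt, 5 members were called. The background was 29.8% of genes higher and 42.6% lower. Jam2 rose by 1.32 (SE 0.21, adjusted p = 6.12e-06), Tjp1 by 1.41 (SE 0.25, adjusted p = 2e-05) and Ocln by 0.83 (SE 0.28, adjusted p = 0.0107). Cldn3 fell by 1.88 (SE 0.25, adjusted p = 3.42e-07), and was still lower with the length correction (-0.93, adjusted p = 0.00234). Cldn11 fell by 0.40 (SE 0.13, adjusted p = 0.00884), but its difference was 0.55 (adjusted p = 0.0016) with that correction, -0.06 (adjusted p = 0.712) in limma and -0.09 (adjusted p = 0.566) with scaling by the Sertoli markers. Without D replicate 2 the calls of Ocln (0.46, adjusted p = 0.282) and Cldn11 (-0.35, adjusted p = 0.111) were lost. Jam3 differed by -0.32 (SE 0.17, adjusted p = 0.0942). F11r (-0.19, adjusted p = 0.159), Cxadr (0.85, adjusted p = 0.185) and Marveld2 (0.86, adjusted p = 0.173) were not called either. With the length correction 6 members were called. This comparison and the one before it share the knockout and the D libraries. Of the other junction lists, 8 of 10 membrane proteins tested (6 higher, 2 lower), 15 of 22 plaque and polarity proteins (8 higher, 7 lower) and 8 of 12 regulators (6 higher, 2 lower) were called, among them Tgfb3, a cytokine known to loosen the barrier (1.53, SE 0.16), and Pard6g, a polarity protein (-2.54, SE 0.24).

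The other junction lists moved in both directions between the knockout and sorted cells. Their differences are given without the correction for exon length, with which differences between the sets went over all genes. Over all genes tested, 38.0% were called higher and 47.0% lower, with a median difference of -0.17. Of 10 further membrane proteins tested, 7 rose and 1 fell, with a median difference of 1.54. Ildr2, of the angulin family of tricellular junctions, averaged 65.5 CPM ± 19.5 in the knockout and 2.26 CPM ± 1.57 in sorted cells, and rose by 4.65 (SE 0.20, adjusted p = 7.92e-17). Cldn5, the claudin of blood vessels and one of the endothelial markers, averaged 28.6 CPM ± 4.13 in the knockout and 1.35 CPM ± 0.978 in sorted cells and rose by 4.05 (SE 0.21). Lsr, the most abundant of the list, rose by 0.33 (SE 0.07, adjusted p = 7.27e-05).

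Of 22 plaque and polarity proteins, 11 rose and 9 fell. These counts and those of the regulators are to be read against 38.0% of all genes called higher and 47.0% lower. Ybx3, a Y-box protein that binds ZO-1 and is also known for its abundance in spermatids, averaged 56.9 CPM ± 5.92 in the knockout and 422 CPM ± 133 in sorted cells, and fell by 3.24 (SE 0.10, adjusted p = 5.98e-20). Pard6a, a polarity protein, fell by 2.81 (SE 0.13, adjusted p = 5.42e-16). Cingulin (Cgn) did not pass the test, at 732 CPM ± 150 in the knockout and 528 CPM ± 173 in sorted cells (log2 difference 0.12, SE 0.10, adjusted p = 0.253). All 12 regulators tested were called, 9 higher and 3 lower. Tgfbr2, a receptor of TGF-beta, averaged 37.0 CPM ± 7.52 in the knockout and 0.55 CPM ± 0.36 in sorted cells, and rose by 5.72 (SE 0.19, adjusted p = 3.35e-19). The 3 lower ones include Wt1 and Fyn, the most abundant regulators in sorted cells, with fitted differences of -0.27 each (SE 0.08, adjusted p = 0.00197 and 0.00236). Their mean CPM was the higher one in the knockout, at 323 CPM for Wt1 and 383 CPM for Fyn, against 299 and 355 CPM in sorted cells, so their direction depends on the scaling.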

How the data were processed

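Polyadenylated RNA of 28 libraries was sequenced on an Ion Proton, per the labels' protocols. Bowtie, TopHat and Cufflinks are named, on mm10, per the submitters' processing notes, and no source used here gives their versions, the counting step, its strand or the annotation. The deposited files hold raw counts and CPM. The CPM files are named FPKM, but each of their values equals the count over the library total (tolerance 0.0006 CPM). The NANOS2 KO count file gives both day 42 columns the same header, and their replicate numbers were taken from the CPM columns with the same values. Date-converted symbols (27 rows, 0.215 to 0.332% of counts) are not named.

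The 3 fits (10 sorted, 18 NANOS2 KO and all 28 libraries) used edgeR 4.0.16 in R 4.3.3: filterByExpr, TMM factors and the quasi-likelihood test. A gene was called at an adjusted p (Benjamini-Hochberg, all genes tested) under 0.05, and every adjusted p is edgeR's unless another tool is named. Alternatives were RLE factors, no filter, DESeq2 1.42.0, limma 3.58.1 on log2(CPM + 1), the replicate number as a block, scaling by the Sertoli markers, periods of 8 and 9 days, leaving out each library and, added after seeing the data, an offset for exon length in 10 bins. Exon lengths, positions and overlaps are on GRCm38. Correlations used log2 CPM with 2 as the prior count. The code was tested on simulated data.

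All 9 members are named. Of the 3 pathway lists, up to 3 called genes with the smallest p in each direction and the 2 most abundant of each list per kilobase were chosen; Il1a, and Cldn10 in the F test, were added after their values were seen. 1 further gene that the rule chose is not reported here. Members and lists were chosen with earlier results of these data known. Further marker sums were 381 CPM ± 47.0 in the knockout and 291 CPM ± 92.1 in sorted cells for macrophages, where Aif1 (8.98 and 163 CPM) and Mrc1 (170 and 126 CPM) made up most of the sorted sum and Csf1r was at 148 and 1.17 CPM. Spermatogonia genes summed to 133 ± 34.0 and 173 ± 46.0 CPM. The knockout sum was Kit (111 CPM) and Zbtb16 (19.7 CPM), while Sall4 had no count and Stra8 and Dmrtb1 had 1 each there. Spermatocyte genes summed to 2.11 ± 1.26 CPM in the knockout and 366 ± 149 CPM in sorted cells, and round spermatid genes to 7.96 ± 1.74 and 504 ± 150 CPM.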

Additional observations from a re-analysis of the deposited data

How the results depend on the processing

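Between all NANOS2 KO and sorted libraries the 6 called members kept their direction under every setting run; Cldn3 and Jam3 lost their calls with the exon length correction. Signs turned for Cldn11 (-0.12; 0.26 in limma, 0.77 with the length correction, 0.04 with Sertoli marker scaling), F11r (-0.13; 0.25, 0.30 and 0.03 under the same settings) and Marveld2 (-0.19 without day 49 replicate 2, to 0.50 without B replicate 2). Against group D, values by setting are not given here for F11r, Cxadr and Marveld2. Among the other members signs turned for Jam3 (0.03 in limma, 0.17 with the length correction) and Cldn11 (0.55 with the length correction). In each stage contrast only some members were compared over the settings. Among these, signs turned for Cldn3 in C (0.06 without C replicate 1, to -1.73 without C replicate 2). They also turned for Tjp1 in A (-0.21 without A replicate 1, to 1.16 without A replicate 2). The causes were not tested. Without the filter, genes called numbered 2764 over stage groups (main 1156), 1932 in D (1239), 988 in C (379), 307 in B (6), 651 in E (75), 901 in A (240), 968 over days (76) and 359 in the cycle (0). In DESeq2 they were 2000, 649 in C, 108 in B, 285 in E, 527 in A, 215 over days, 212 on the line (112) and 60 in the cycle. In limma they were 0 in B, 38 over days and 25 on the line, with Sertoli marker scaling 0 in B, 43 in E and 158 in A, with the length correction 16 in B and 1 in the cycle, and with a period of 9 days 3. Members called without the filter were 4 over stage groups, 2 in D, 2 in C, 1 in E and 2 over days. In DESeq2 they were 3 over stage groups, 2 in C and 1 over days, in limma 0 in D and 1 in C, with the length correction 1 over stage groups, and with Sertoli marker scaling 0 in D. With 1 library left out, genes called ran from 414 to 1557 over stage groups, 295 to 1788 in D, 161 to 598 in C, 0 to 81 in B, 0 to 319 in E, 85 to 304 in A, 24 to 909 over days, 4 to 213 on the line, 0 to 9 in the cycle, and 9318 to 12004 against D. Members called ran from 0 to 3 over stage groups, 0 to 2 in D, in C and over days, 6 to 8 between the sets and 3 to 5 against D.

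With the replicate number as a block, 2 members were called over stage groups (Jam2 and Jam3, adjusted p = 0.0226 and 0.0324) and 1 in C (Jam3), and genes called were 24 in B, 170 in E, 477 in A and 65 on the line. The numbers were not taken to pair the libraries, since not every pair of groups correlated over 0.1: deviations of same-numbered libraries correlated from -0.11 to 0.43 over 10 pairs of stage groups (6 over 0.1) and from -0.27 to 0.13 over 36 pairs of days (1 over 0.1). With 2 libraries in each group and as few as 39 counts in all (Cxadr, sorted cells), depth limits Marveld2 and Cxadr most.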
